A study of Mus musculus with 32 samples.

Results

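The subject is 9 genes of mouse liver: Ly6d, Aldh1b1, Eppk1, Apip, Rap1gap2, Traf7 and Calu, picked because they were higher in m6A immunoprecipitation (IP) libraries of Mettl14 knockout or hepatectomised livers, and the ductal genes Sox9 and Spp1, set beside them. They are 9 of 55421 genes in the count table. Liver RNA of 16 mice was read as 32 libraries, an input and an IP library from each animal. The groups were hepatectomy with Mettl14 KO, hepatectomy with flox control, sham surgery with Mettl14 KO and sham surgery with flox control, with 4 animals in each. The animals were 71 to 77 days old. The labels do not give the Cre driver of the knockout, and all libraries are of whole liver, so "KO" below means the liver of a KO animal and not its hepatocytes. The 7 picked genes were chosen on their IP values, so for those values no test is given. The input libraries of the same livers, and the IP values of Sox9 and Spp1, were not named in that rule and were tested. All 9 genes and the tests were chosen with earlier results of these data known, so these tests are not fully independent of the choice.

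METTL14 is the RNA-binding partner of METTL3 in the enzyme that methylates adenosines of mRNA (m6A), a mark that other proteins read to change the splicing, translation or decay of the transcript. An antibody against m6A pulls down fragments that carry the mark, so an IP level can follow the amount of a transcript, the methylated share of it, or both. After part of the liver is removed, hepatocytes re-enter the cell cycle, and after some injuries hepatocytes also take on genes of the bile ducts, of which Sox9 and Spp1 are the textbook examples. In bulk liver fewer cells of a type and less RNA per cell cannot be told apart.

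Input libraries were made from bulk RNA with a stranded mRNA kit and IP libraries from RNA broken to about 100 bases with another kit, so a difference between input and IP of a gene cannot be assigned to the antibody alone. The totals were 8177746 to 12533871 counts in input and 7133726 to 24297713 in IP libraries. CPM are counts per 1000000 counts of the library. At 3 counts, a count of 0 allows up to 0.239 to 0.367 CPM in input and 0.123 to 0.42 CPM in IP libraries. These limits cover counting error only. Aldh1b1 had an input at 0 in the hepatectomised flox, sham KO and sham flox groups, whose highest inputs were 182, 182 and 401 CPM. The folds given below as "at least" carry the same limit. Replicate 4 of the hepatectomised KO animals stood apart in IP, with the smallest total and 6676 genes of at least 10 counts, the fewest of the IP libraries, against a median of 11393. Replicate 4 of the sham KO animals stood apart the other way, with the largest total, 16846 such genes, against 13200 in the next library, and 8.22% of values that were not whole, against 4.42% in the next. Results that rest on either library are given with and without it, a choice made after the values were seen. Mettl14 itself had 0 counts in all 16 inputs and counts in the IP libraries of 3 of 8 KO and 5 of 8 flox animals, so the genotype was not checked by it. The defining hepatocyte markers, Alb among them, were read in every group, with summed levels of 19239 to 66576 CPM in hepatectomised KO, 64967 to 85018 CPM in hepatectomised flox, 46845 to 77985 CPM in sham KO and 65074 to 74839 CPM in sham flox IP libraries.

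The 9 genes did not share 1 pattern. Ly6d, Aldh1b1, Apip, Rap1gap2 and Traf7 had every hepatectomised KO IP library above every hepatectomised flox one, which is 5 of 9, where 4.29% of the 14159 genes whose IP mean reached 1 CPM did. Aldh1b1, Eppk1 and Sox9 did so between sham KO and sham flox livers (3 of 9, against 3.46% of all genes). Ly6d, Aldh1b1 and Eppk1 had every hepatectomised flox library above every sham flox one (3 of 9, against 2.42%), while Apip and Traf7 had every one below (2 of 9, against 2.27%). Rap1gap2 and Calu had every hepatectomised KO library above every sham KO one (2 of 9, against 2.09%). Since 7 of the genes were chosen on such differences, nothing is read from these counts. The comparisons share groups, so they are not independent of each other.

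**Figure D1:**
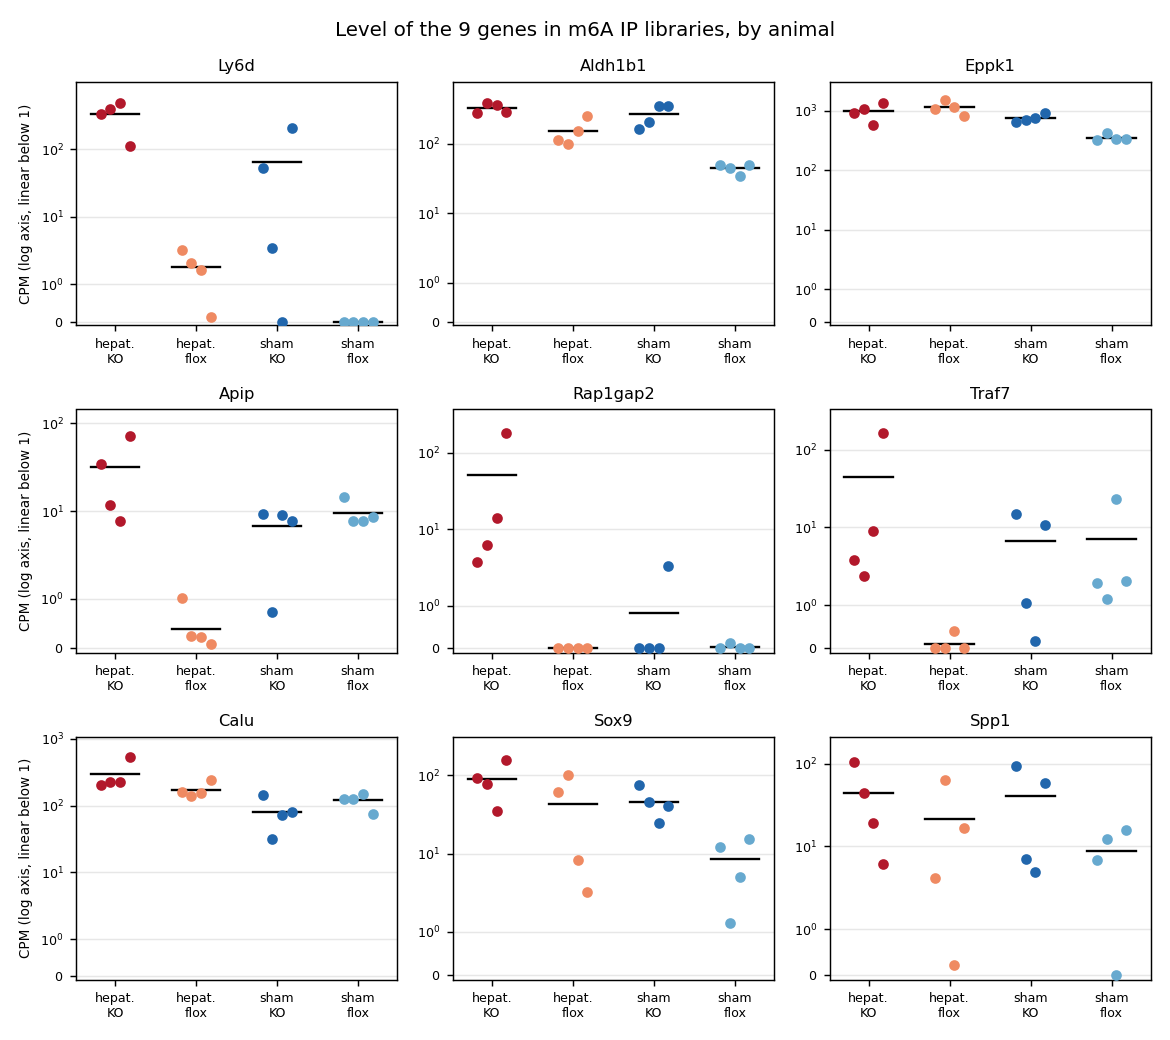
Level of each of the 9 genes in the IP library of each animal, in CPM on a log axis that is linear below 1. Points are animals and lines are group means (n = 4 each). Ly6d, Rap1gap2 and Traf7 sat between 0 and 3.27 CPM in hepatectomised flox livers and between 2.36 and 492 CPM in hepatectomised KO livers.

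Ly6d encodes a small surface protein of the Ly6 family, held in the membrane by a lipid anchor and known from early B lineage cells and from stratified epithelia (ENSMUSG00000034634, chromosome 15, 74762056 to 74763620, minus strand, in the coordinates of the count table, whose build the labels and header do not state). Its IP level was 334, 397, 492 and 112 CPM in hepatectomised KO livers, against 3.27, 2.06, 1.64 and 0.138 CPM in hepatectomised flox livers. In sham KO livers it was 53.4, 3.49, 0 and 206 CPM, against 0 CPM in all 4 sham flox livers. The hepatectomised groups were far apart, and the sham KO livers ran from none to a level within the hepatectomised KO range.

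The means of Ly6d in IP were 334 ± 161 CPM in hepatectomised KO and 1.78 ± 1.29 CPM in hepatectomised flox livers (SD, n = 4 each), a ratio of 188 that stayed between 144 and 261 when any 1 of these libraries was left out. Against the group floor of 3 counts the sham KO mean of 65.8 ± 96.8 CPM was at least 1220-fold higher than sham flox, although 1 sham KO library was itself at 0. Without sham KO replicate 4 the bound was at least 352-fold. Hepatectomised flox livers were at least 32.9-fold higher than sham flox livers, and every one of them had counts.

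Input libraries, which were not named in the rule that chose Ly6d, gave 267, 120.0, 21.3 and 57.7 CPM in hepatectomised KO livers. Hepatectomised flox livers had 0, 0, 0.801 and 0 CPM. These groups did not overlap (1 of 9 genes, against 2.86% of the 12173 genes whose input mean reached 1 CPM). The exact 2-sided permutation test of the mean difference of 116 CPM gave p = 0.0286, the smallest that 4 against 4 animals allow. It was 1 of 18 such tests over the 9 genes and 2 surgeries. The exact test was planned only for genes with too few input counts to be fitted. In edgeR's quasi-likelihood fit over all input genes Ly6d differed by 9.30 on the log2 scale (SE 3.91) and did not pass after Benjamini-Hochberg adjustment (adjusted p = 0.281, where 0.0342% of all genes passed). As the mean over both surgeries the difference was 7.79 (SE 2.60, adjusted p = 0.144, where 0.0798% passed). DESeq2 did call it, with a log2 difference of 9.24 after hepatectomy (adjusted p = 0.024) and 7.75 over both surgeries (adjusted p = 0.00331). In these comparisons DESeq2 called 1332 and 1618 of all input genes, where edgeR called 3 and 7.

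Sham livers gave no such separation in input: sham KO animals had 0, 0, 0.0981 and 69.8 CPM of Ly6d, and sham flox animals 0, 0.934, 0 and 0 CPM. The sham KO animal with 69.8 CPM in input was the one with 206 CPM in IP. Without it the ratio of sham KO to sham flox input means was 0.14, against 74.8 with it.

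Markers of the other cells that carry Ly6d were looked for in the same libraries. The 6 B and plasma cell markers summed to 0 to 13.2 CPM in hepatectomised KO and 0 to 9.15 CPM in hepatectomised flox IP libraries. In sham animals they summed to 0.179 to 18.7 CPM in KO and 0 to 4.52 CPM in flox IP libraries. In input they summed to 0 to 23.4 CPM in hepatectomised KO, 0 CPM in hepatectomised flox, 0 to 81.8 CPM in sham KO and 0 to 99.2 CPM in sham flox livers. The 7 squamous and surface epithelium markers summed to 3.28 to 58.9 CPM in hepatectomised KO, 0 to 0.499 CPM in hepatectomised flox, 0 to 4.24 CPM in sham KO and 0 CPM in sham flox IP libraries. Most of the sum in hepatectomised KO livers was Sprr1a, the only one of the 7 that could be tested. Krt6a, Krt13 and Trp63 were at 0 in all IP libraries, and Krt14 was at 0 in all hepatectomised KO ones.

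Among them was Sprr1a, a protein of the cornified envelope of surface epithelia, at 42.5, 3.28, 53.4 and 11.5 CPM in hepatectomised KO livers and 0 CPM in all 4 hepatectomised flox livers in IP. In input Sprr1a had counts in 1 of 16 libraries, sham KO replicate 4 (47.9 CPM), the sham KO animal with the most Ly6d. As the mean over both surgeries Sprr1a rose in KO IP libraries (log2 9.21, SE 2.10, edgeR adjusted p = 0.0283, a fitted value that depends on the prior count), and the call was lost in 10 of 21 alternative settings. Without sham KO replicate 4 it was 5.79 (adjusted p = 1). Sprr1a was also called after hepatectomy alone when hepatectomised KO replicate 4 was left out (11.98, SE 3.23, adjusted p = 0.0464). The part of these cells in the Ly6d values was not tested.

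Of the other 14 genes of the Ly6 and uPAR family, 12 were found by name and 7 could be tested in IP. Between hepatectomised KO and flox livers 6 were higher and 1 lower, none past the threshold, with a median log2 difference of 2.02, against 0.01 over all 14020 genes tested. With hepatectomised KO replicate 4 left out, 8 could be tested, 7 higher and 1 lower, with a median of 2.85 (0.06 over all genes). With all libraries the share of all genes called between these groups was 1.5%. Ly6e, a family member made by many cell types, had 922, 1057, 950.2 and 1403 CPM in hepatectomised KO, 379, 513, 314 and 434 CPM in hepatectomised flox, 767, 486, 402 and 904 CPM in sham KO and 126, 322, 139 and 222 CPM in sham flox IP libraries. KO livers lay above flox livers within each surgery, and as the mean over both surgeries Ly6e rose by 1.32 on the log2 scale (SE 0.23, edgeR adjusted p = 0.00209), where 1.42% of all genes were called. In input Ly6e averaged 604 ± 251 CPM in hepatectomised KO and 303 ± 41.8 CPM in hepatectomised flox livers, and 560.3 ± 169.9 CPM in sham KO and 567 ± 126 CPM in sham flox livers (SD, n = 4 each).

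Aldh1b1, a mitochondrial aldehyde dehydrogenase that oxidises acetaldehyde and retinal, was higher in KO than in flox IP libraries under both surgeries (ENSMUSG00000035561, chromosome 4, 45799022 to 45804604, plus strand). The IP level was 281, 381, 366 and 282 CPM in hepatectomised KO livers, against 115, 100.4, 153 and 250.2 CPM in hepatectomised flox livers. In sham animals it was 161, 208, 350.2 and 353 CPM in KO livers, against 49.1, 45.1, 34.9 and 50.3 CPM in flox livers. KO lay above flox without overlap under both surgeries, and hepatectomised flox lay above sham flox, so sham flox was the low group.

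The KO over flox ratio of Aldh1b1 in IP was 2.12 after hepatectomy and 5.98 after sham surgery, and the hepatectomy over sham ratio was 3.45 in flox and 1.22 in KO livers. Whether the genotype ratio differs between surgeries was not tested. Input levels did not separate the groups: they were 101, 286, 332 and 75.4 CPM in hepatectomised KO, 46.8, 182, 0 and 104 CPM in hepatectomised flox, 118, 0, 154 and 182 CPM in sham KO and 51, 401, 17.5 and 0 CPM in sham flox livers. All groups overlapped, with log2 differences of 1.44 after hepatectomy and 0.18 after sham surgery (SE 1.48 and 1.45, edgeR adjusted p = 1 for both; exact permutation p = 0.229 and 1).

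The RefSeq table holds promoter windows for 6 of the 9 genes. Those of the 4 genes read in at least 15 of the 16 IP libraries, Aldh1b1, Apip, Calu and Spp1 (the first of its 2 windows), were searched for motifs, and those of Rap1gap2 and Traf7 were not. The Aldh1b1 sequence is shown as that of the gene whose IP levels separated KO from flox under both surgeries. The window on the plus strand of GRCm38.p6 (RefSeq), chr4:45798772-45799021, ends at the last base before the start of the gene, and the capitals mark a GC box (GGGCGG), whose first base lies 16 bases before that start.
Aldh1b1: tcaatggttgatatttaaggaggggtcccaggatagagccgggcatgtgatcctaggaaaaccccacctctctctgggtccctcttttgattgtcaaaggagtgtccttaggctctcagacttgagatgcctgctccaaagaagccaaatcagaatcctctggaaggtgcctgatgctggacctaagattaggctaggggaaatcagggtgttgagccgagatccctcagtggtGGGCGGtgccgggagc
The GC box was in 32.7% of the 32851 windows of 250 bases in the table. Searched for on both strands as well were the SOX motifs, which are ACAATG, in 10.7% of all windows, and the variant ACAAAG, in 16.5%. The TEAD motif GGAATG was in 12.6%, the RBPJ motif TGGGAA in 21.6% and the TATA box TATAAA in 12.4%. None of these others matched in the Aldh1b1 window, and no matches overlapped.

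Among the 13 of 17 listed aldehyde dehydrogenases that could be tested in IP, 7 were higher and 6 lower in KO than in flox livers under either surgery, none past the threshold. Their median log2 difference was 0.07 after hepatectomy, against 0.01 over all genes, and 0.16 after sham surgery, where that over all genes was also 0.16. Without hepatectomised KO replicate 4, 5 were higher and 8 lower after hepatectomy, with a median of -0.18 (0.06 over all genes), and Aldh8a1 passed as lower (-1.52, SE 0.34, edgeR adjusted p = 0.00847). Without sham KO replicate 4, 6 were higher and 7 lower after sham surgery, with a median of -0.20 (0.10 over all genes). The summed level of these enzymes in IP was 1526 to 2187 CPM in hepatectomised KO and 2341 to 2884 CPM in hepatectomised flox livers, lower in every KO library, while that of Aldh1b1 was higher in every one.

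Eppk1 encodes epiplakin, a giant plakin that binds keratin filaments (ENSMUSG00000115388, chromosome 15, 76101481 to 76120195, minus strand), and its IP level separated sham flox livers from all others. It was 905, 1079, 565 and 1347 CPM in hepatectomised KO livers, against 1050.5, 1489.6, 1155 and 821 CPM in hepatectomised flox livers, which overlapped. In sham KO livers it was 630.1, 681, 742 and 926 CPM, against 316, 412, 328 and 334 CPM in sham flox livers, which did not.

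The KO over flox ratio of Eppk1 in IP was 0.862 after hepatectomy and 2.14 after sham surgery, so Eppk1 goes against the label of a gene gained in KO livers after hepatectomy. The hepatectomy over sham ratio was 1.31 in KO and 3.25 in flox livers. Input levels overlapped among all groups, at 1342, 689.8, 1388 and 1377 CPM in hepatectomised KO, 893, 1519, 295 and 687 CPM in hepatectomised flox, 1180.0, 1197, 1027 and 774 CPM in sham KO and 883, 1237, 1691 and 798 CPM in sham flox livers. Its log2 difference between KO and flox inputs was 0.70 after hepatectomy (SE 0.37, edgeR adjusted p = 0.407) and 0.08 after sham surgery (SE 0.37, adjusted p = 1), the smallest errors of the 6 genes tested in input.

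Of 10 plakin and desmosome genes tested in IP, all 10 were higher in sham KO than in sham flox livers and 7 were higher in hepatectomised KO than in hepatectomised flox livers, none past the threshold. Their median log2 difference was 0.47 after sham surgery, against 0.16 over all genes, and 0.59 after hepatectomy, against 0.01. Without hepatectomised KO replicate 4, 9 were higher and 1 lower after hepatectomy, with a median of 0.41 (0.06 over all genes), and the desmosome plakin Dsp passed as higher (1.42, SE 0.39, edgeR adjusted p = 0.0401). The sum of the list was 3420.0 to 4384 CPM in hepatectomised KO, 1685 to 2952 CPM in hepatectomised flox, 1721 to 3285 CPM in sham KO and 1416 to 2046 CPM in sham flox IP libraries, with every hepatectomised KO library above every other. Periplakin (Ppl), which links keratin to the cell membrane, averaged 704 ± 200.2 CPM in hepatectomised KO, 392 ± 168 CPM in hepatectomised flox, 374 ± 171 CPM in sham KO and 168 ± 17.8 CPM in sham flox livers (SD, n = 4 each).

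Apip encodes the dehydratase of the methionine salvage pathway, which returns the sulphur compound left by polyamine synthesis to methionine (ENSMUSG00000010911, chromosome 2, 103073675 to 103092644, plus strand). Its IP level was 34.8, 11.8, 7.75 and 71.8 CPM in hepatectomised KO livers, against 1.02, 0.25, 0.226 and 0.0688 CPM in hepatectomised flox livers. Sham livers had 9.29, 0.739, 8.97 and 7.78 CPM in KO and 14.3, 7.81, 7.62 and 8.48 CPM in flox animals. The low group was thus hepatectomised flox, under every sham flox liver and under every hepatectomised KO liver.

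The KO over flox ratio of Apip in IP was 80.6 after hepatectomy (46.3 to 174 with 1 library left out) and 0.7 after sham surgery. Within flox livers the hepatectomy over sham ratio was 0.0409, and within KO livers it was 4.71 with overlapping groups. Input counts were too few for the fit: hepatectomised KO livers had 0, 28.9, 0.491 and 0 CPM, sham KO livers 0, 0, 2.75 and 0 CPM, and both flox groups 0 CPM in all libraries. The exact permutation p for the inputs was 0.429 after hepatectomy and 1 after sham surgery. With counts in so few libraries neither test could have given a lower p, so nothing is read from them.

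All 11 other genes of methionine salvage and polyamine synthesis were tested in IP, and between KO and flox 7 were higher and 4 lower after hepatectomy, none past the threshold, with a median log2 difference of 0.06. Mat1a, the liver enzyme that makes S-adenosylmethionine, the methyl donor of m6A, fell in hepatectomised KO against sham KO livers by 2.09 on the log2 scale (SE 0.45, edgeR adjusted p = 0.0266, where 0.635% of all genes were called). It averaged 279 ± 76.6 CPM in hepatectomised KO, 607 ± 49.9 CPM in hepatectomised flox, 1064 ± 708 CPM in sham KO and 802 ± 617 CPM in sham flox IP libraries. Leaving out sham KO replicate 2 brought the log2 difference to -1.38 (adjusted p = 0.225), and the call was also lost without hepatectomised KO replicate 1 (-1.98, adjusted p = 0.0974) or 3 (-2.15, adjusted p = 0.0612).

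Rap1gap2 encodes a protein that switches off the small GTPase Rap1 (ENSMUSG00000038807, chromosome 11, 74383356 to 74610915, minus strand). In IP it stood at 3.73, 6.3, 14.1 and 182 CPM in hepatectomised KO livers and at 0 CPM in all 4 hepatectomised flox livers. Sham KO livers had 0, 0, 0 and 3.33 CPM, and sham flox livers 0, 0.131, 0 and 0 CPM. It was read in all hepatectomised KO livers and in 2 of the other 12, and hepatectomised KO replicate 4, the shallow library, held most of the level.

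Against the group floor Rap1gap2 was at least 1080-fold higher in hepatectomised KO than in hepatectomised flox IP libraries, and at least 169-fold without hepatectomised KO replicate 4. The hepatectomised KO over sham KO ratio was 61.9 with all libraries and 9.66 without hepatectomised KO replicate 4. Without sham KO replicate 4, which held all of the sham KO counts, hepatectomised KO was at least 859-fold higher than sham KO. That bound keeps hepatectomised KO replicate 4: the hepatectomised KO mean was 51.6 CPM with it and 8.05 CPM without it. In input it was read in 3 of 16 libraries: 88.3 and 0.568 CPM in hepatectomised KO replicates 1 and 2 and 26.3 CPM in hepatectomised flox replicate 3. The input of the animal that was highest in IP had no counts.

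The 15 other genes of the Rap1 pathway found by name, among them other GTPase-activating proteins and exchange factors, were all tested in IP. Between hepatectomised KO and flox livers 6 were higher and 9 lower, none past the threshold, with a median log2 difference of -0.10. Without hepatectomised KO replicate 4, 8 were higher and 7 lower, with a median of 0.21 (0.06 over all genes), and Rapgef4, an exchange factor that switches Rap1 on in response to cAMP, passed as lower (-1.28, SE 0.36, edgeR adjusted p = 0.0465). Their sums overlapped, at 429 to 775 CPM in hepatectomised KO and 560 to 745 CPM in hepatectomised flox IP libraries.

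Traf7, a ubiquitin ligase with WD40 repeats in the TRAF family of signalling adaptors (ENSMUSG00000052752, chromosome 17, 24508562 to 24527938, minus strand), was likewise highest in 1 library. Its IP level was 3.84, 2.36, 8.91 and 164 CPM in hepatectomised KO livers, against 0, 0, 0.395 and 0 CPM in hepatectomised flox livers. Sham KO livers had 14.8, 1.07, 0.164 and 10.9 CPM, and sham flox livers 1.91, 1.18, 23.5 and 2.01 CPM. Hepatectomised flox livers lay below every hepatectomised KO and every sham flox liver, and overlapped the sham KO livers.

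The KO over flox ratio of Traf7 in IP was 454 after hepatectomy and 51.0 without hepatectomised KO replicate 4, against 7 counts in all of the hepatectomised flox libraries. After sham surgery it was 0.941. The hepatectomised KO over sham KO ratio was 6.67, and 0.749 without hepatectomised KO replicate 4, so the direction rests on that library. In input Traf7 was read in 1 of 16 libraries, hepatectomised flox replicate 3, at 28.2 CPM. The other 6 TRAF genes were all tested in IP, 3 higher and 3 lower between hepatectomised KO and flox livers, or 2 and 4 without hepatectomised KO replicate 4, none past the threshold.

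Calu encodes calumenin, a calcium-binding protein of the secretory pathway known to restrain the vitamin K-dependent modification of clotting factors (ENSMUSG00000029767, chromosome 6, 29348069 to 29377110, plus strand). Its IP level was 204, 227, 225 and 539.7 CPM in hepatectomised KO livers, against 143, 31.4, 72 and 78.8 CPM in sham KO livers, without overlap. In flox livers it was 157, 138, 153 and 238 CPM after hepatectomy and 127, 127, 149 and 74.5 CPM after sham surgery, with overlap. The hepatectomy over sham ratio in IP was 3.68 in KO livers (2.70 to 4.92 with 1 library left out) and 1.43 in flox livers.

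The inputs of the same KO animals ran the other way: Calu had 101, 38.3, 84.7 and 115 CPM in hepatectomised KO livers, against 199, 299, 207 and 203 CPM in sham KO livers. These groups did not overlap either (1 of 9 genes lower, against 0.624% of all genes), with a ratio of 0.374. The fit gave a log2 difference of -1.41 (SE 1.07, edgeR adjusted p = 1, where 0.0228% of all genes were called), which did not pass. Flox inputs had 103, 131, 151 and 296 CPM after hepatectomy and 68.3, 310.1, 16.4 and 179 CPM after sham surgery. Between hepatectomised KO and hepatectomised flox inputs the exact permutation p was 0.0571, with means of 84.8 ± 33.4 and 170.2 ± 86.4 CPM (SD, n = 4 each).

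The 4 other proteins of the same calcium-binding family, Rcn1, Rcn2, Rcn3 and Sdf4, were all tested in IP, 3 higher and 1 lower between hepatectomised KO and flox livers, none past the threshold. Their summed IP level was 104 to 204 CPM in hepatectomised KO and 90.4 to 195 CPM in hepatectomised flox livers.

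**Figure D2:**
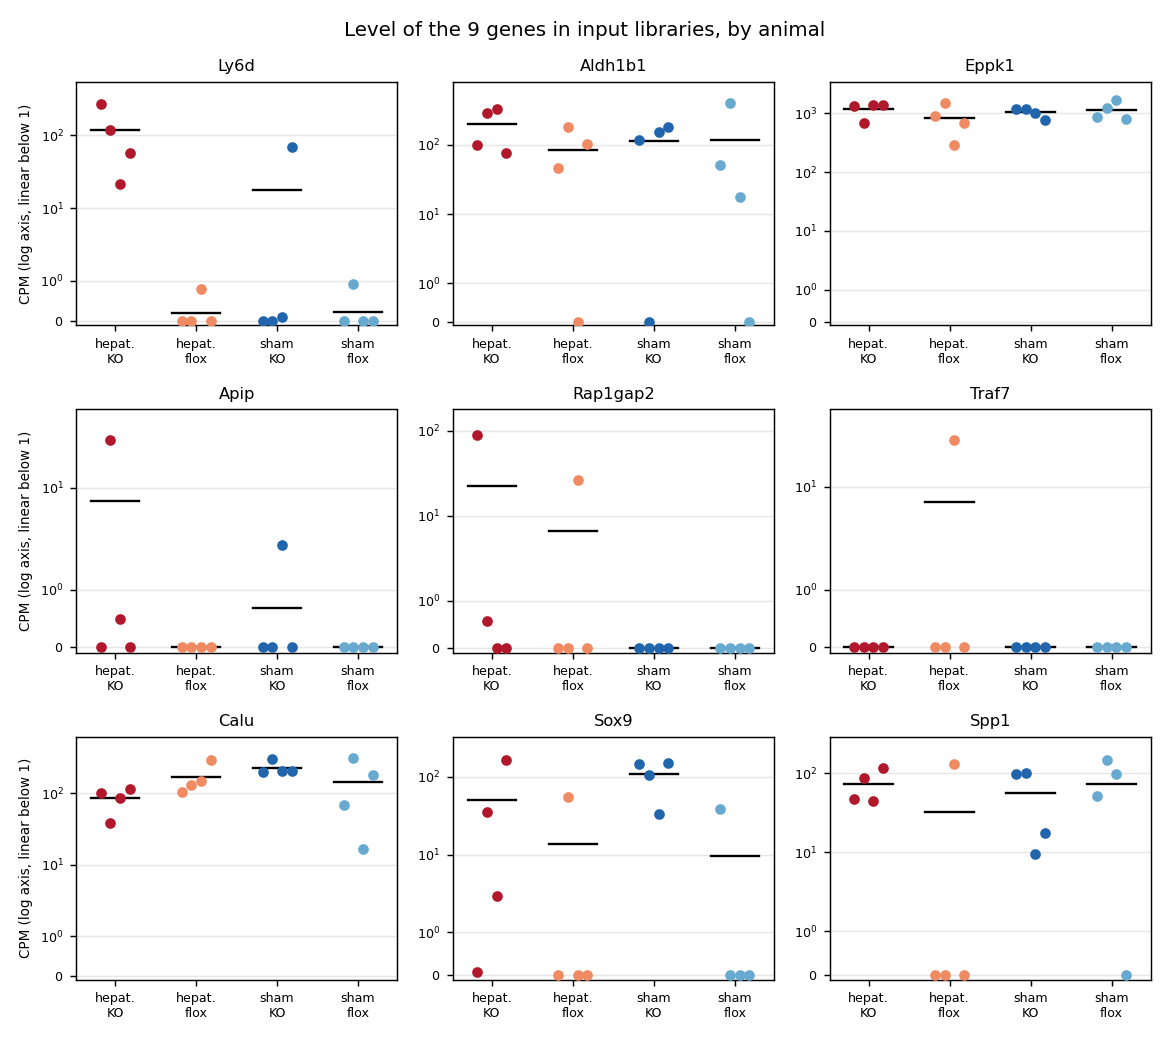
Level of each of the 9 genes in the input library of each animal, in CPM on a log axis that is linear below 1. Points are animals and lines are group means (n = 4 each). Apip, Rap1gap2 and Traf7 were at 0 CPM in most input libraries, and Ly6d alone had its hepatectomised KO points above all hepatectomised flox points.

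Sox9, the transcription factor that marks the bile duct lineage, had a higher mean in KO than in flox livers under both surgeries in both kinds of library, and passed the test in none (ENSMUSG00000000567, chromosome 11, 112782224 to 112787760, plus strand). In IP it had 92.1, 77.8, 35 and 156 CPM in hepatectomised KO livers, against 61, 99.8, 8.41 and 3.23 CPM in hepatectomised flox livers. Sham KO livers had 75, 45.5, 24.3 and 40.3 CPM, against 12, 1.31, 5.08 and 15.4 CPM in sham flox livers. The sham groups did not overlap and the hepatectomised groups did.

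Between sham KO and sham flox IP libraries Sox9 differed by 2.33 on the log2 scale (SE 0.86, edgeR adjusted p = 0.711), a ratio of means of 5.48, where 0.0927% of all genes were called. After hepatectomy the difference was 0.76 (SE 0.82, adjusted p = 0.858). Its inputs were 0.0816, 34.8, 2.95 and 164 CPM in hepatectomised KO livers, 0, 54.3, 0 and 0 CPM in hepatectomised flox livers, 145, 106, 33.5 and 151 CPM in sham KO livers and 38.3, 0, 0 and 0 CPM in sham flox livers. In the sham inputs 3 of 4 KO livers were above every flox liver and the fourth was under 1 of them, with a log2 difference of 3.64 (SE 2.72, adjusted p = 1) and an exact permutation p of 0.0571.

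Spp1 encodes osteopontin, a secreted phosphoprotein made by bile duct cells and by activated macrophages (ENSMUSG00000029304, chromosome 5, 104435118 to 104441050, plus strand). Its IP level was 106, 44.3, 19.4 and 6.17 CPM in hepatectomised KO, 4.16, 64.3, 0.226 and 16.8 CPM in hepatectomised flox, 93.8, 7.12, 4.97 and 58.4 CPM in sham KO and 6.9, 12.2, 0 and 15.9 CPM in sham flox livers. All groups overlapped. The log2 difference between KO and flox in IP was 0.77 after hepatectomy (SE 1.27, edgeR adjusted p = 0.935) and 2.04 after sham surgery (SE 1.31, adjusted p = 1).

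Inputs of Spp1 were 46.8, 85.6, 44.1 and 118 CPM in hepatectomised KO, 0, 0, 129 and 0 CPM in hepatectomised flox, 98.5, 99.4, 9.61 and 17.5 CPM in sham KO and 51.1, 144, 97.1 and 0 CPM in sham flox livers. In hepatectomised livers Spp1 was read in 4 of 4 KO and 1 of 4 flox inputs, and that flox library was the highest of the 8. The log2 difference there was 1.45 (SE 2.17, edgeR adjusted p = 1).

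The promoter window of Spp1 in RefSeq on GRCm38.p6, chr5:104434861-104435110 on the plus strand, is shown because it was the only one of the 4 windows searched with a match to a SOX motif. The capitals mark TATAAA, whose first base lies 211 bases before the RefSeq start, and CTTTGT, which is ACAAAG read on the opposite strand and lies 168 bases before it.
Spp1: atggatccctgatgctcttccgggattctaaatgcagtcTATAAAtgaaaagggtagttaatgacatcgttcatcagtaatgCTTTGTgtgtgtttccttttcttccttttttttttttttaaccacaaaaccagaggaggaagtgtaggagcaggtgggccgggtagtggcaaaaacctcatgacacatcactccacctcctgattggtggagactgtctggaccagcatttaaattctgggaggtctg
The windows of Apip and Calu held a GC box 138 and 167 bases before the RefSeq start and none of the other motifs. The Calu window ends at base 29348105, past the start of Calu in the count table (29348069). The GC content was 43.6% in the Spp1 window, 53.2% in that of Aldh1b1, 66.4% in that of Apip and 66.0% in that of Calu.

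**Figure D3:**
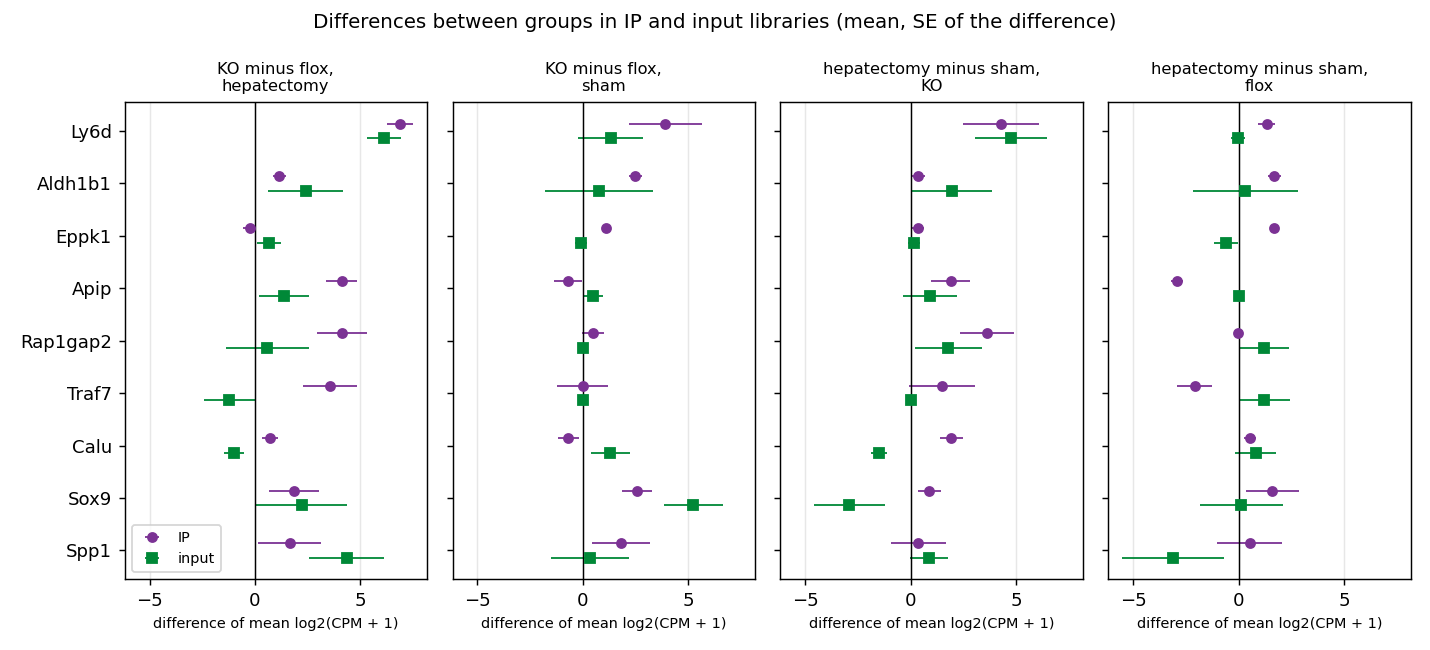
Difference of mean log2(CPM + 1) between 2 groups for each gene in IP (circles) and input (squares) libraries, with the standard error of the difference (n = 4 against 4), for KO minus flox and hepatectomy minus sham. Ly6d after hepatectomy lies right of 0 in both kinds of library, while Calu between hepatectomised and sham KO livers lies right of 0 in IP and left of 0 in input.

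Whether the inputs showed the differences seen in IP was the question open to a test. Of the 9 genes 6 passed the filter on low counts in input, with 5 comparisons each, and of these 30 values 0 passed the adjusted threshold in edgeR, where it called 0.0114% of all genes between KO and flox after sham surgery, 0.0342% after hepatectomy, 0.0798% over both surgeries, and 0.0228% and 0% between surgeries in KO and flox livers. At an unadjusted p under 0.05 there were 2 values, both of Ly6d, against 14% of all genes in each of these 2 comparisons. The median of all genes was higher by 0.49 in hepatectomised KO than in hepatectomised flox inputs and by 0.24 in sham KO than in sham flox inputs on the log2 scale.

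Per animal, input and IP levels were set side by side for the same liver. For Ly6d, 4 of 4 hepatectomised KO animals had counts in both kinds of library. Of the other 12 animals 2 did, the sham KO animal with the highest IP level and 1 hepatectomised flox animal. For Aldh1b1 the 3 animals without input counts, of the hepatectomised flox, sham KO and sham flox groups, had 153, 208 and 50.3 CPM in IP. The log2 IP over input of a group, estimated over all 32 libraries, was above 0 for 23 of the 36 gene and group values, and above the median of all genes in the same group for 18 of the 36.

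Most of these ratios had errors too large to order the genes. The smallest errors were those of Eppk1, with log2 IP over input of -0.55 in hepatectomised KO, 0.74 in hepatectomised flox, -0.65 in sham KO and -1.48 in sham flox livers (SE 0.39 in each). The median of all genes was 0.31 in hepatectomised KO, 1.27 in hepatectomised flox, 0.71 in sham KO and 0.95 in sham flox livers, so Eppk1 lay below the median gene in every group. Calu stood at 1.57 in hepatectomised KO and -1.66 in sham KO livers (SE 0.82 each), and at 0.35 in hepatectomised flox and 0.03 in sham flox livers (SE 0.80 each).

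**Figure D4:**
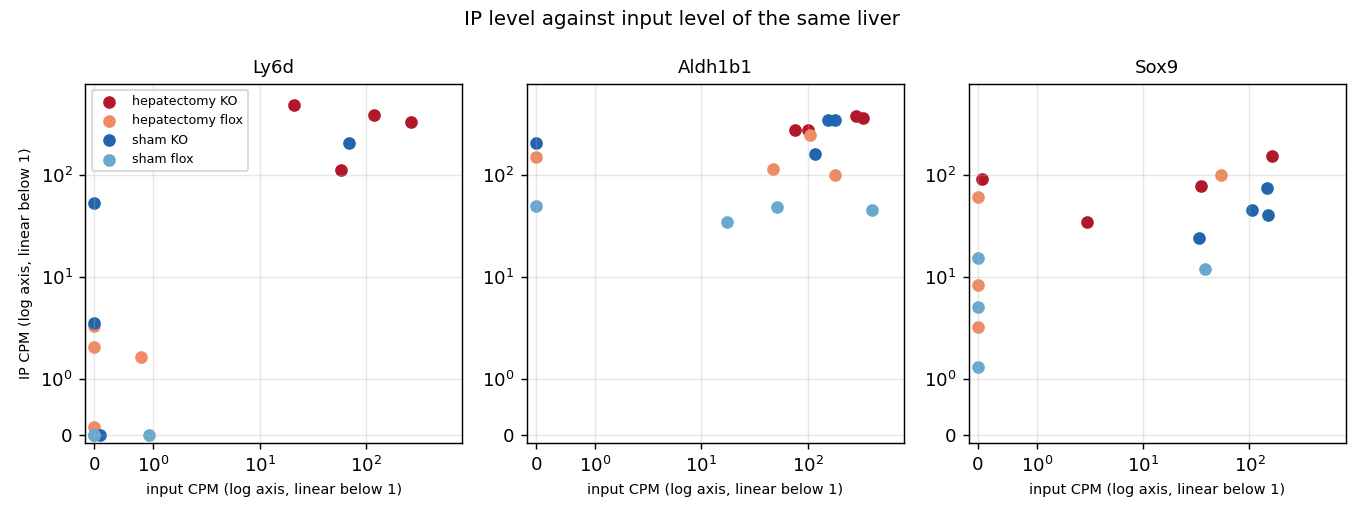
IP level against input level of the same liver for Ly6d, Aldh1b1 and Sox9, in CPM on log axes that are linear below 1. Points are animals, coloured by group. The 4 hepatectomised KO livers hold Ly6d in both libraries, and Aldh1b1 spans 0 to 401 CPM in input at IP levels of 34.9 to 381 CPM.

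Per kilobase of transcript, Ly6d was the highest of the 9 in hepatectomised KO IP libraries at a mean of 449 CPM per kb. Aldh1b1 followed at 143, Eppk1 at 79.0 and Calu at 64.1 CPM per kb. The antibody pulls down marked fragments, which need not cover the whole length of a transcript. The order therefore mixes gene length, methylated share and amount, and is not an order of transcript amount. The order in hepatectomised flox livers began with Eppk1 at 91.6, Aldh1b1 at 67.3 and Calu at 36.8 CPM per kb, and Ly6d stood at 2.39 CPM per kb. In sham flox livers Eppk1 at 28.2 and Calu at 25.6 CPM per kb led, and their ranges overlapped. Rap1gap2 and Traf7 were the lowest in hepatectomised KO livers, at 7.2 and 7.63 CPM per kb, and did not differ beyond their spread.

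The gene models of the 9 genes had little in common. Their length ran from 744 bases (Ly6d, 3 exon blocks, longer than 4.41% of the genes read in IP) to 12332 bases (Eppk1, 2 blocks, longer than 95.1%), against a median of 4170 bases. Long internal or last exons are where m6A is often found, and the longest block was 11245 bases in Eppk1, above 99.7% of genes, but 203 bases in Apip, above 1.24% of genes. In Aldh1b1 93.6% of the length lay in 1 block of 2150 bases.

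The genes most like each of the 9 were named by the Pearson correlation of log2(CPM + 1) over the 16 IP libraries among 9038 genes with a mean of at least 5 CPM, a description in which the libraries share depth and group. For Ly6d they were Krt18 (0.93), Rps19 (0.92) and Gstm3 (0.91), a keratin, a ribosomal protein and a glutathione transferase. For Aldh1b1 they were Igsf11 (0.90), Il10rb (0.89) and Lasp1 (0.89), and for Eppk1 the mitotic genes Top2a (0.90) and Aspm (0.85) with Eid1 (0.85). The highest value was that of Rap1gap2 with Pafah1b3 (0.96), followed by Anxa1 (0.95) and Ttc39a (0.92), and the shallow library was the highest for Rap1gap2, Pafah1b3 and Anxa1 alike. Traf7 went with Mvb12a (0.82), Tmem259 (0.81) and the cornified envelope gene Evpl (0.81), Apip with Rhoa (0.85), Ubl7 (0.81) and Atf4 (0.79), Calu with Wtap, Spc25 and Rps6kb1 (0.85 each), Sox9 with Mideas (0.92), Tubb2a (0.89) and Mrap (0.86), and Spp1 with Vangl1 (0.85), Anxa5 (0.83) and Fgd3 (0.82).

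Gstm3 was compared in both kinds of library. In IP it was 1551, 1841, 1004 and 762 CPM in hepatectomised KO livers, against 123, 114, 33.1 and 166 CPM in hepatectomised flox livers. In input it was 683, 932, 392 and 231 CPM in hepatectomised KO livers, against 239, 15.7, 96.7 and 73.9 CPM in hepatectomised flox livers. The lowest hepatectomised KO input was thus under the highest hepatectomised flox input, and the other 3 were above it.

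Other genes of the bile ducts were read beside Sox9 and Spp1. Of 25 such genes 24 were found by name and 15 could be tested in IP. Between hepatectomised KO and flox livers 11 were higher and 4 lower, with a median log2 difference of 1.44 (0.01 over all genes), and between sham KO and flox livers 13 were higher and 2 lower, with a median of 1.96 (0.16 over all genes). Krt18 alone passed the threshold after hepatectomy, none did after sham surgery, and Krt18 and Prom1 did as the mean over both surgeries. Over all genes 1.5%, 0.0927% and 1.42% were called in these comparisons. Without the shallow library 18 of the list were tested after hepatectomy, 13 higher and 4 lower. Their median was 1.23 (0.06 over all genes), and 2 of them, Krt8 and Krt18, passed the threshold as higher, where 457 genes were called. As the mean over both surgeries Krt8, Krt18, Prom1 and St14 passed as higher without that library, where 480 genes were called.

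Krt18, a keratin of hepatocytes as well as of bile ducts, had 492, 269, 275 and 425 CPM in hepatectomised KO IP libraries, against 95.8, 100.2, 40.3 and 56.3 CPM in hepatectomised flox ones. Sham KO livers had 192, 119.7, 40.0 and 215 CPM, against 23.7, 28.7, 28.8 and 40.7 CPM in sham flox livers. Krt18 rose by 2.04 on the log2 scale after hepatectomy (SE 0.45, edgeR adjusted p = 0.0159), a call lost without hepatectomised KO replicate 1 (1.84, adjusted p = 0.0687) or hepatectomised flox replicate 3 (1.83, adjusted p = 0.0922) or 4 (1.92, adjusted p = 0.0843). As the mean over both surgeries it rose by 2.05 (SE 0.32, adjusted p = 0.00059). In input it averaged 215 ± 82.4 CPM in hepatectomised KO, 129.6 ± 179.7 CPM in hepatectomised flox, 109 ± 87.7 CPM in sham KO and 163 ± 53.1 CPM in sham flox livers, and no gene of the list passed there.

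Krt8, the filament partner of Krt18, had 982, 659.6, 627 and 101 CPM in hepatectomised KO and 206, 294, 106 and 117 CPM in hepatectomised flox IP libraries, the shallow library being the low one. Prom1, a membrane protein of duct and progenitor cells, had 27.8, 1.95, 2.54 and 8.41 CPM in hepatectomised KO and 8.46, 9.4, 0.82 and 8.03 CPM in sham KO IP libraries, against 0 CPM in all hepatectomised flox and 0, 0.0656, 0 and 0 CPM in sham flox ones. It rose as the mean over both surgeries (edgeR adjusted p = 0.0155; 0.0104 to 0.0478 with 1 library left out).

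The defining markers of bile duct cells were low: the 7 found of the 8 cholangiocyte markers, all 8 of which are also in the ductal list, summed to 0.981 to 95.2 CPM in hepatectomised KO, 13.8 to 47.4 CPM in hepatectomised flox, 13.3 to 58.6 CPM in sham KO and 3.0 to 21.1 CPM in sham flox IP libraries. Sctr was at 0 in all IP libraries, and Krt19 and Tspan8 in all inputs. Krt19 had 0, 3.69, 0 and 0.981 CPM in hepatectomised KO and 0, 4.80, 0.339 and 2.41 CPM in hepatectomised flox IP libraries. Of the 4 cholangiocyte markers tested, 2 were higher and 2 lower after hepatectomy and 4 were higher after sham surgery, none past the threshold. Leaving out hepatectomised KO replicate 4, 5 were tested, 3 higher and 2 lower after hepatectomy. Their part in the Sox9 and Spp1 values was not tested.

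**Figure D5:**
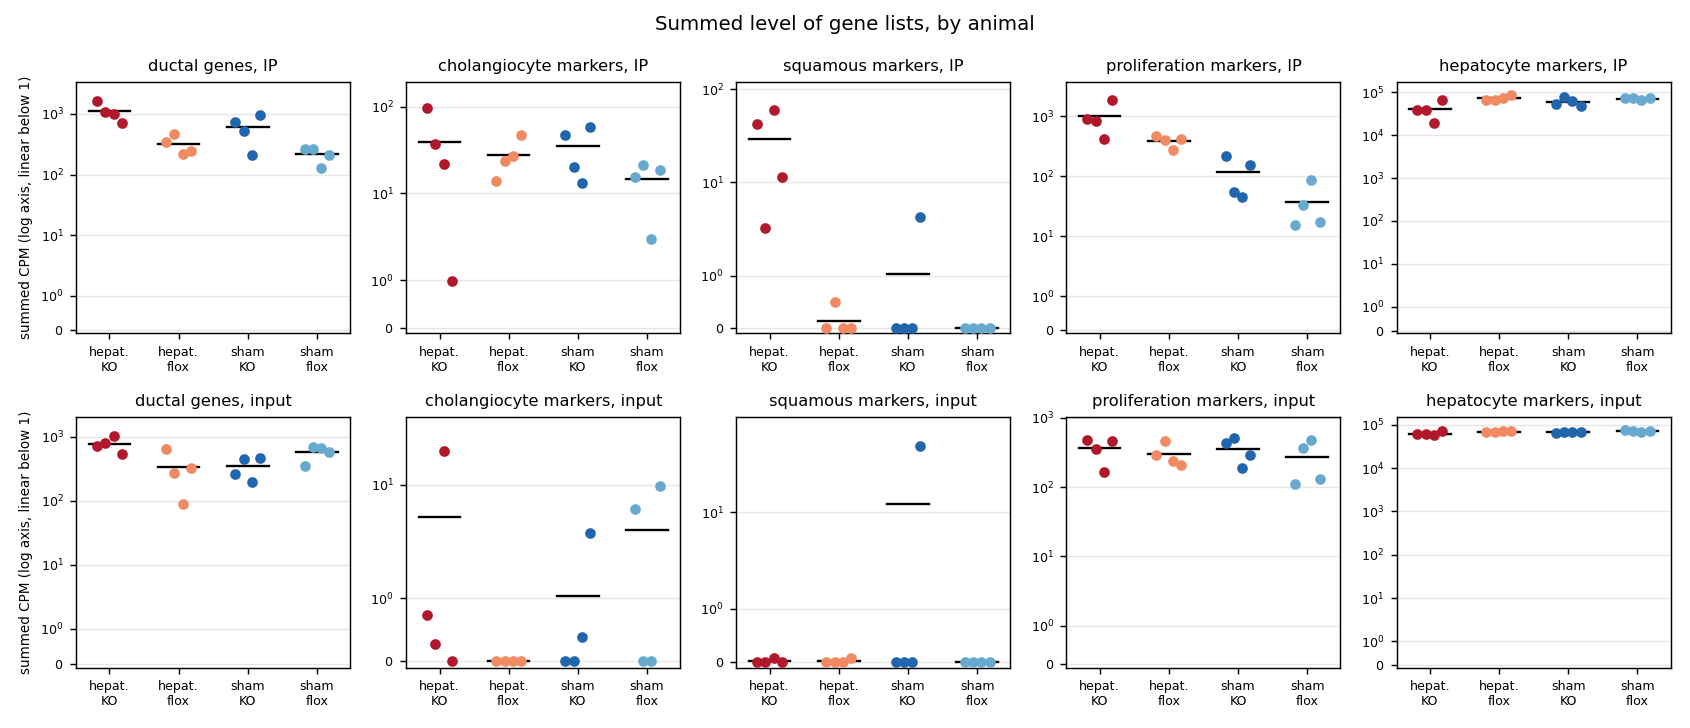
Summed level of 5 gene lists in the IP (top) and input (bottom) library of each animal, in CPM on log axes that are linear below 1. Points are animals and lines are group means (n = 4 each). The ductal genes summed to 717 to 1649 CPM in hepatectomised KO IP libraries, above the 219 to 467 CPM of hepatectomised flox ones. A large part of these sums was Krt8 and Krt18, the latter a keratin of hepatocytes as well. The cholangiocyte markers overlapped between these groups. The hepatocyte markers summed to 19239 to 66576 CPM, against 64967 to 85018 CPM.

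Relatives of Sox9 and of the Notch and YAP pathways, which act with it in duct formation, held 1 gene past the threshold, Sox4. Of 13 Sox and Notch genes tested in IP, 9 were higher and 4 lower in KO than in flox livers after hepatectomy (median log2 0.39) and 11 and 2 after sham surgery (0.57), none past the threshold under a single surgery with all libraries. Without hepatectomised KO replicate 4, 8 were higher and 5 lower after hepatectomy (median 0.56, against 0.06 over all genes), and Sox4 passed as higher there (4.02, SE 1.01, edgeR adjusted p = 0.022). Without sham KO replicate 4, 9 were higher and 4 lower after sham surgery (median 0.25, against 0.10). Sox4 had 259, 85.2, 188 and 29.3 CPM in hepatectomised KO and 2.52, 4.62, 11.1 and 18.9 CPM in hepatectomised flox IP libraries, and rose as the mean over both surgeries by 3.33 on the log2 scale (SE 0.75, edgeR adjusted p = 0.018), or 3.07 (adjusted p = 0.0596) without hepatectomised KO replicate 1. Of 13 YAP targets 10 were higher and 3 lower after hepatectomy (median 0.48) and 9 and 4 after sham surgery (0.61). Of 7 osteopontin relatives and receptors 6 were higher and 1 lower under either surgery, and none of either list passed the threshold. Without hepatectomised KO replicate 4 the receptor gene Itga9 passed as higher over both surgeries (1.15, SE 0.29, edgeR adjusted p = 0.0226).

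Markers of other cell types were read in the same groups. Between hepatectomised KO and flox IP libraries 8 of 9 hepatocyte markers were lower. Apoa1 (-1.44, SE 0.30, adjusted p = 0.00957), G6pc (-2.36, SE 0.41, adjusted p = 0.0017) and Pck1 (-1.59, SE 0.38, adjusted p = 0.0246) passed edgeR's test as lower. Over all genes 1.5% were called there. Without the shallow library 5 of the 9 passed as lower, where 457 genes were called in either direction, against 210 with it. The Pck1 call was lost without library scaling factors, without hepatectomised KO replicate 3 or without hepatectomised flox replicate 3 or 4 (adjusted p = 0.0781 to 0.0946 over these 4 settings). Kupffer cell and macrophage markers, which bear on Spp1, summed to 415 to 891 CPM in hepatectomised KO and 279 to 395 CPM in hepatectomised flox IP libraries, and 7 of 8 were higher, none past the threshold. The 8 stellate cell markers summed to 709 to 967 CPM in hepatectomised KO and 288 to 437 CPM in hepatectomised flox libraries. Of these 7 were higher, none past the threshold. Without the shallow library all 8 were higher after hepatectomy, none past the threshold. As the mean over both surgeries Lrat, Col1a1, Col1a2 and Col3a1 then passed as higher (log2 1.39 to 2.68, edgeR adjusted p = 0.0334 to 0.0453), where 480 genes were called. Without sham KO replicate 4 none of the 8 was called.

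Proliferation markers, among them Top2a, the gene most like Eppk1 in IP, had their lowest sums in sham flox livers. The 6 found summed to 410 to 1821 CPM in hepatectomised KO, 267 to 462 CPM in hepatectomised flox, 45.5 to 219 CPM in sham KO and 15.3 to 84.8 CPM in sham flox IP libraries. Top2a, the topoisomerase of dividing cells, averaged 36.3 ± 26.9 CPM in hepatectomised KO, 17.7 ± 7.03 CPM in hepatectomised flox, 8.89 ± 6.61 CPM in sham KO and 0.0153 ± 0.0305 CPM in sham flox livers (SD, n = 4 each). It rose in sham KO against sham flox livers (edgeR adjusted p = 0.0487) and in hepatectomised against sham flox livers (adjusted p = 0.0425, where 0.0285% of all genes were called), calls that were lost in 16 and 12 of 21 alternative settings. In input the same markers summed to 166 to 483 CPM in hepatectomised KO, 206 to 462 CPM in hepatectomised flox, 188 to 515 CPM in sham KO and 112 to 479 CPM in sham flox livers, with overlap of all groups.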

How the data were processed

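The values the authors deposited are expected counts, estimated per gene and not scaled between libraries, for 55421 Ensembl genes in 32 libraries; 1.33% to 8.22% of the values of a library are not whole, so reads that fit several genes may be split between them. Tools named are fastp (read trimming) and STAR (alignment), per the submitters' processing notes. Not given in the sources used here: versions, counting program, annotation, strand setting, genome build. Counts were rounded. Genes were named by matching positions to RefSeq genes on GRCm38.p6, used for names only (31921 named, 297 after a shift of 1000000 bases).

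CPM are counts per 1000000 counts of the library, computed from the deposited counts. Input and IP libraries were each fitted with edgeR 4.0.16 (R 4.3.3): TMM factors, filterByExpr with a minimum count of 10, quasi-likelihood F-tests, Benjamini-Hochberg threshold 0.05. The script was tested on simulated counts. DESeq2 1.42.0 and other settings were alternatives. Exact 2-sided permutation tests compared 4 with 4 animals. They were planned for genes with too few input counts to be fitted and are also given for fitted genes. Ratios against a group at 0 use a floor of 3 counts over the group, and intervals and floors cover counting error only. The labels do not say that samples of a group were processed apart, so p-values measure the spread between these animals' libraries.

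Named genes are the 9 members, genes of each list that are called or among its 3 highest by mean IP level, and the 3 genes most like each member; which of these to show in full was chosen after their values were seen. Members, lists and tests were chosen with earlier results of these data known. List counts without either IP library that stood apart, and bounds with a library left out, were added after seeing the data. Input and IP of an animal are paired by the labels; the correlation of their deviations from group means over 8717 genes was -0.005 to 0.067. Replicate numbers that groups share only number the animals: deviations of same-numbered samples correlated between -0.1 and 0.18.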

Additional observations from a re-analysis of the deposited data

Results flagged for a closer look

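In a group of 4 libraries a value was singled out where its gap to the nearest other value, divided by the range of the group, passed Dixon's 95% critical value. Chance gives about 1 in 20 groups where values are normally distributed. Of 72 gene and group combinations 63 had counts, and those at 0 throughout could not be singled out. In all 22 were singled out, 8 in IP and 14 in input libraries, 21 of them as the highest value. Many groups hold 3 values at or near 0, where a single library with counts is enough.

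In IP libraries hepatectomised KO replicate 4 was the highest for Rap1gap2 (182 CPM), Traf7 (164 CPM) and Calu (540 CPM). Rap1gap2 was also highest in sham KO replicate 4 (3.33 CPM) and in sham flox replicate 2 (0.131 CPM). Traf7 was highest in hepatectomised flox replicate 3 (0.395 CPM) and sham flox replicate 3 (23.5 CPM), and Apip in sham flox replicate 1 (14.3 CPM).

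In input libraries Ly6d was highest in sham KO replicate 4 (69.8 CPM), hepatectomised flox replicate 3 (0.801 CPM) and sham flox replicate 2 (0.934 CPM). Aldh1b1 was highest in sham flox replicate 2 (401 CPM), and Eppk1 was lowest in hepatectomised KO replicate 2 (690 CPM). Apip was highest in hepatectomised KO replicate 2 (28.9 CPM) and sham KO replicate 3 (2.75 CPM), and Rap1gap2 in hepatectomised KO replicate 1 (88.3 CPM). Hepatectomised flox replicate 3 was the highest input of its group for Rap1gap2 (26.3 CPM), Traf7 (28.2 CPM) and Spp1 (129 CPM). Calu was highest in sham KO replicate 2 (299 CPM), and Sox9 in hepatectomised flox replicate 2 (54.3 CPM) and sham flox replicate 1 (38.3 CPM).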

How the results depend on the processing

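Over 2286 values recomputed under another setting, 96 were no longer called, 2 became called and 40 moved. The label was unchanged for 2148 and turned round for 0. These labels do not show that direction held for values called under neither setting. The ratio of sham KO to sham flox input means of Ly6d, for example, went from 74.8 to 0.14 with 1 library left out. With edgeR 0 of the 9 genes were called in any input comparison under the scaling factors, filters, left-out libraries and block tried (0 to 0 without any 1 library), while DESeq2 called 1, Ly6d, in input after hepatectomy and as the mean over both surgeries. The cause was not tested. Sox9 and Spp1 were called in 0 IP comparisons under every setting. With the replicate number as a block the Ly6d difference in input was 9.97 after hepatectomy (adjusted p = 0.564), against 9.30. Log2 IP over input was above 0 for 25 of 36 values with the animal as a block, against 23.

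Counts over all genes moved by more than 1.5 times between settings, in the order KO against flox after sham surgery, after hepatectomy, hepatectomy against sham in flox and in KO livers, and KO against flox over both surgeries. In input they were 1, 3, 0, 2 and 7, with DESeq2 900, 1332, 1535, 309 and 1618, with any gene of at least 1 count 11, 5, 1, 5 and 11, with the block 12, 5, 1, 6 and 17, without TMM factors 0, 3, 0, 2 and 3, with upper-quartile factors 0, 4, 0, 1 and 2, and with 1 library left out 2 to 18, 3 to 9, 0 to 5, 2 to 9 and 9 to 30. In IP they were 13, 210, 4, 89 and 199, with DESeq2 310, 1045, 396, 542 and 1030, with any gene of at least 1 count 65, 430, 71, 278 and 450, and with 1 library left out 7 to 19, 116 to 457, 0 to 13, 35 to 253 and 127 to 480. Without TMM factors the 48 higher and 162 lower IP calls after hepatectomy became 75 and 96, those over both surgeries 119 and 89 in place of 64 and 135, and 54 genes were called between surgeries in KO livers; the median of all genes after hepatectomy was then 0.28, against 0.01. The highest IP counts with a library left out (457, 253 and 480) were those without hepatectomised KO replicate 4.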
